A study of Mus musculus with 17 samples.

Results

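The prostaglandin genes described here are 10 of the 35896 gene IDs in the deposited tables, chosen by name for their place in prostaglandin synthesis, breakdown and reception and followed in every library as CPM, counts scaled to the size of the library. They are Pla2g4a, Ptgs1, Ptgs2, Ptges, Ptges2, Ptgis, Hpgd, Ptger2, Ptger4 and Ptgfr. All 10 passed the filter on low counts, although Hpgd held only 3 to 44 and Ptger2 only 3 to 48 counts per library. The RNA came from cultured mouse pancreatic stellate cells, the resident mesenchymal cells of the pancreas that can become fibroblasts. They were wild-type C57BL/6J cells of 2 lines, PSC4 and PSC5, embedded in Matrigel, a basement membrane gel, and kept for 4 days in 1 of 4 media. The control group (5 libraries) had control medium alone, which the series calls quiescent, and the TGF-beta group (4 libraries) had that medium with TGF-beta at 20 ng/mL. The CM group (4 libraries) had medium conditioned by pancreatic tumour organoids, and the neratinib group (4 libraries) had such medium plus neratinib, which blocks kinases of the ERBB receptor family, at 300 nM.

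Each line stands for 1 cell population, and the replicate numbers mark passages of it, so p-values measure the spread between cultures of 2 lines and not between animals. PSC4 was used at passages 23, 24 and 25 as replicates 1, 2 and 3, and PSC5 at passages 27 and 28 as replicates 1 and 2. The conditioned media carried the code T8 in all replicates 1 and T6 in all replicates 2, with no explanation of the codes in the labels. Library totals lay between 22168953 and 29421447 counts. Fibroblast and stellate markers were present in every library, with 9 or 10 of 12 at 10 CPM or more throughout each group. Of 10 macrophage and leukocyte markers only Adgre1 and Tyrobp had no count in any library, and Cd14 was at 10 CPM or more throughout control, CM and neratinib. Of 12 epithelial markers, 7 were at 10 CPM or more in each CM library with T6 and 6 in each neratinib library with T6. With T8 these numbers were 1 and 0, and in control and with TGF-beta 0. In each of control, CM and neratinib the library that the labels call PSC4 replicate 1 stood apart: with group means removed, these 3 correlated across genes with PSC5 libraries (median r 0.195 over 18 pairs) and negatively with the other PSC4 libraries (median r -0.309 over 14 pairs). Calls for the 10 genes that change without these 3 libraries are given both ways; the further genes of the pathway were tested with all libraries only.

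Prostaglandins are short-lived lipid signals made from arachidonic acid. Cytosolic phospholipase A2, the product of Pla2g4a, frees arachidonic acid from membranes, the cyclooxygenases Ptgs1 and Ptgs2 turn it into prostaglandin H2, and terminal synthases such as Ptges (prostaglandin E2) and Ptgis (prostacyclin) give the final products. Hpgd, 15-hydroxyprostaglandin dehydrogenase, inactivates them. Cells sense them through receptors coupled to G proteins, of which Ptger2 and Ptger4 (for prostaglandin E2) raise cyclic AMP and Ptgfr (for prostaglandin F2 alpha) raises calcium. In fibroblasts Ptgs2 is a classical inducible gene of inflammatory and growth factor signals, while Ptgs1 is usually the constitutive form.

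Promoters are shown first for 4 of the 5 genes that rose in conditioned medium (Ptgs2 and Pla2g4a) or fell with TGF-beta (Ptges, Ptger4 and Ptgfr) against control; the stretch of Ptgfr lies wholly in annotated exons and is not printed. Each is the stretch from 250 bases before to 30 bases after a RefSeq transcription start on GRCm38.p6, 280 bases in all. RefSeq promoters were found for 9 of the 10 genes. Capitals mark matches, on either strand, to any of 8 motifs: the cyclic AMP response element TGACGTCA and its core TGACGT (contained in the former), the AP-1 site TGANTCA, the TATA box TATAAA, the TEAD site GGAATG, the E-box CACGTG, the NF-kappaB site (GGG, any 5 bases, CC) and the SMAD box CAGACA.
Ptgs2 (chr1:150099781-150100060, + strand): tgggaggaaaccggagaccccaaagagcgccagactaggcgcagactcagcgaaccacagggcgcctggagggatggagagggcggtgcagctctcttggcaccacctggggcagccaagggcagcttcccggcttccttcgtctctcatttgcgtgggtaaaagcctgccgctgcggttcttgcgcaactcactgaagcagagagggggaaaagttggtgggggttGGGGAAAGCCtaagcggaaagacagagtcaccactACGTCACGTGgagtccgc
Pla2g4a (chr1:149961261-149961540, - strand): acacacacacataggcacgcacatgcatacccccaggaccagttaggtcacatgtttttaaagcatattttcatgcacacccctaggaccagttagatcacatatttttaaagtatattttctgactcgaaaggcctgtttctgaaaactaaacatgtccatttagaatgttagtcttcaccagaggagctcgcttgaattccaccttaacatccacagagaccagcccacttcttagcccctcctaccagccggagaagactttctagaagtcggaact
Ptges (chr2:30903268-30903547, - strand): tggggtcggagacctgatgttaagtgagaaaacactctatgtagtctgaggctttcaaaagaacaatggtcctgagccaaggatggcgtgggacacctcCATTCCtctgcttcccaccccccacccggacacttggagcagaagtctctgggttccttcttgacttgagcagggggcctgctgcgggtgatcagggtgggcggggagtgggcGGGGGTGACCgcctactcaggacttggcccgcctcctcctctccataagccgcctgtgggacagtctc
Ptger4 (chr15:5244158-5244437, - strand): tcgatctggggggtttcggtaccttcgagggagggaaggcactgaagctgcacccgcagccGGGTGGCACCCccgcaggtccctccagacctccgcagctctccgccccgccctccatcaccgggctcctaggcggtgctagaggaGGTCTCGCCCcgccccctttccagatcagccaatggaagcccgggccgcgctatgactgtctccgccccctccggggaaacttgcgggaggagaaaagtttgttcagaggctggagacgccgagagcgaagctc

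In the Ptgs2 stretch the run ACGTCACGTG just after the start holds the core of the cyclic AMP response element on the other strand (bases 13 to 18 after the start) and an E-box (bases 17 to 22), which overlap. Of the promoters of these genes only that of Ptgs2 held the core, which 7.26% of all 32851 RefSeq promoter windows of this length hold, and only those of Ptgs2 and Ptges2 held the E-box (6.79% of all). A run matching the NF-kappaB letters, GGGGAAAGCC, lay 23 to 14 bases before the Ptgs2 start, a pattern so loose that 48.9% of all promoters have it. Of the 280 bases, 213 lie in annotated exons, those of Ptgs2 itself and of Ptgs2os on the opposite strand. The Pla2g4a stretch, at the outer of its 2 RefSeq starts, had no match to any of the 8 motifs. The Ptges stretch held the TEAD letters, CATTCC on the other strand, 151 to 146 bases before the start (13.9% of all promoters) and an NF-kappaB match. The Ptger4 stretch held NF-kappaB matches alone. No promoter of these genes held the full cyclic AMP element, the AP-1 site or the SMAD box. A match is a run of letters and shows no binding.

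The 5 comparisons were each made within 1 model of all 17 libraries with the medium and the line as terms. With TGF-beta against control, Ptges, Ptgfr and Ptger4 fell and Ptgs1 rose, 4 of 10 genes called at an adjusted p under 0.05 (edgeR), where 40.2% of the 13923 genes tested were called (19.7% higher and 20.5% lower). In CM against control Ptgs2 and Pla2g4a rose, 2 of 10 against 14.2% of all genes (7.05% higher and 7.14% lower). With neratinib against CM alone Hpgd fell and Ptgs1 and Ptges2 rose, 3 of 10 against 20.5% of all genes (10.8% higher and 9.63% lower). With neratinib against control Ptgs2, Pla2g4a and Ptges2 rose and Hpgd fell, 4 of 10 against 43.1% of all genes (22.2% higher and 20.9% lower). In CM against TGF-beta 7 of 10 were called, with Ptgfr, Ptges, Ptgs2, Ptger2, Ptger4 and Pla2g4a higher in CM and Ptgs1 lower, where 35.3% of all genes were called (17.8% higher and 17.5% lower). The first 4 of these counts lie near the share of all genes and are not results about the genes as a group. The median log2 fold change of the 10 was 0.73 in CM against TGF-beta (0.02 over all tested genes), 0.36 in CM against control (0.00) and between -0.18 and 0.11 in the other 3 comparisons. The TGF-beta and CM comparisons share their control libraries, and both neratinib comparisons share theirs with the CM ones.

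Pla2g4a (ENSMUSG00000056220, chromosome 1, 149829618 to 149961290 on GRCm38, minus strand, as are all positions from GENCODE M21 here) was the steadiest gene of the pathway at rest. Its control libraries read 79.6, 78.6 and 76.6 CPM in PSC4 replicates 1 to 3 and 80.1 and 80.4 CPM in PSC5. The CM libraries read 118 and 95.5 CPM in PSC4 replicates 1 and 2 and 134 and 104 CPM in PSC5 replicates 1 and 2. All 4 lay above every control library, and in each line the replicate 1 library, with the T8 medium, was the higher. In CM against control Pla2g4a rose by 0.51 in log2 units (1.43-fold, SE 0.11, adjusted p 0.00665, edgeR). With neratinib the libraries read 159.6 and 108 CPM in PSC4 and 141 and 121 CPM in PSC5, again all above control and each above the CM library of the same line and number. The gene rose by 0.74 against control (1.67-fold, SE 0.11, adjusted p 0.000115, edgeR), while against CM the difference was 0.23 (95% interval -0.01 to 0.47, adjusted p 0.164, edgeR). With TGF-beta the values were 84.9 and 92.7 CPM in PSC4 replicates 2 and 3 and 84.4 CPM in both PSC5 libraries. These lay above all control libraries too, by a difference of 0.13 that did not pass the test (adjusted p 0.363, edgeR). With only the 2 groups in the model this difference was called (0.141, adjusted p 0.0445, edgeR).

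Ptgs2 (ENSMUSG00000032487, chromosome 1, 150100031 to 150108227, plus strand), the inducible cyclooxygenase, had the largest rise in conditioned medium of the 10 genes. Its control libraries read 92.5, 66.5 and 50.04 CPM in PSC4 replicates 1 to 3 and 85.6 and 83.8 CPM in PSC5. In CM they read 242 and 197 CPM in PSC4 replicates 1 and 2 and 402 and 169 CPM in PSC5. The lowest CM library was thus above the highest control library, and the CM values spread far more widely than the control values. The mean was 253 ± 104 CPM (SD, n = 4) in CM and 75.7 ± 17.3 CPM (SD, n = 5) in control, a log2 rise of 1.71 (3.27-fold, SE 0.31, adjusted p 0.00295, edgeR) that was called in 19 of 19 alternatives. In a bulk culture, more transcript per cell and more cells that express the gene cannot be told apart.

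No change of Ptgs2 with neratinib was detectable within its wide spread. With the inhibitor the libraries read 341 and 134 CPM in PSC4 replicates 1 and 2 and 340.4 and 148 CPM in PSC5, a mean of 241 ± 115 CPM (SD, n = 4). Against CM the difference was -0.06, with a 95% interval from -0.74 to 0.63 (adjusted p 0.924, edgeR). That interval does not use the pairing of the libraries. With the block of line and number the difference was -0.121 (adjusted p 0.721, edgeR). Without the 3 libraries that stood apart it was -0.326 (adjusted p 0.539, edgeR). The sign was positive in 4 of 18 alternatives. Of the 4 pairs of the same line and number, the neratinib library was lower in 3 and higher in PSC4 replicate 1. Against control Ptgs2 rose by 1.66 (3.15-fold, SE 0.31, adjusted p 0.000765, edgeR), and by 0.89 (adjusted p 0.00733) when the T8 libraries were removed. With TGF-beta the libraries read 46.9 and 74.5 CPM in PSC4 replicates 2 and 3 and 72.7 and 71.4 CPM in PSC5, all within the range of the control libraries except the lowest, and the difference was -0.21 (adjusted p 0.623, edgeR).

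Ptgs1 (ENSMUSG00000047250, chromosome 2, 36230426 to 36252272, plus strand), the constitutive cyclooxygenase, was the most abundant of the 10 genes in every control and TGF-beta library. It read 224, 269 and 254 CPM in the PSC4 control libraries and 226 and 213 CPM in those of PSC5. The TGF-beta libraries read 299 and 323 CPM in PSC4 and 266 and 246 CPM in PSC5, which overlapped control. Ptgs1 rose by 0.27 with TGF-beta (1.21-fold, SE 0.08, adjusted p 0.0146, edgeR), but not without TGF-beta PSC4 replicate 3 (0.24, adjusted p 0.0571) or without the line term (0.26, adjusted p 0.063). The CM libraries read 195 and 257 CPM in PSC4 replicates 1 and 2 and 212 and 194 CPM in PSC5, and 3 of 4 lay below the control mean without passing the test (difference -0.13, adjusted p 0.344, edgeR). With neratinib they read 275 and 286 CPM in PSC4 and 232 and 273 CPM in PSC5, a rise of 0.31 over CM (SE 0.09, adjusted p 0.0203, edgeR). That call was lost in 7 of 18 alternatives, among them the fits without CM PSC4 replicate 1 (0.24, adjusted p 0.0655), CM PSC5 replicate 2 (0.29, 0.056) or neratinib PSC5 replicate 2 (0.26, 0.0736). Against control the neratinib difference was 0.19 (adjusted p 0.0761, edgeR), and it was called without the 3 libraries that stood apart (0.18, adjusted p 0.0495) and with the block of line and number (0.21, adjusted p 0.0168). Ptgs1 was lower in CM than with TGF-beta (-0.40, SE 0.09, adjusted p 0.00222, edgeR), in 18 of 18 alternatives.

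The ratio of the cyclooxygenases was described without a test. Per kilobase of exon, Ptgs2 stood at 0.276 ± 0.0823 of the level of Ptgs1 in control (SD, n = 5) and at 0.201 ± 0.0503 with TGF-beta (SD, n = 4). In CM the ratio was 1.01 ± 0.435 (SD, n = 4), from 0.649 to 1.61, and with neratinib 0.788 ± 0.423 (SD, n = 4), from 0.399 to 1.24. Every library in conditioned medium, with or without the inhibitor, had a higher ratio than every control library, whose highest was 0.35. The transcripts of both cyclooxygenases thus reached similar levels in CM, whereas Ptgs1 was well above Ptgs2 in every control and TGF-beta library.

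**Figure D1:**
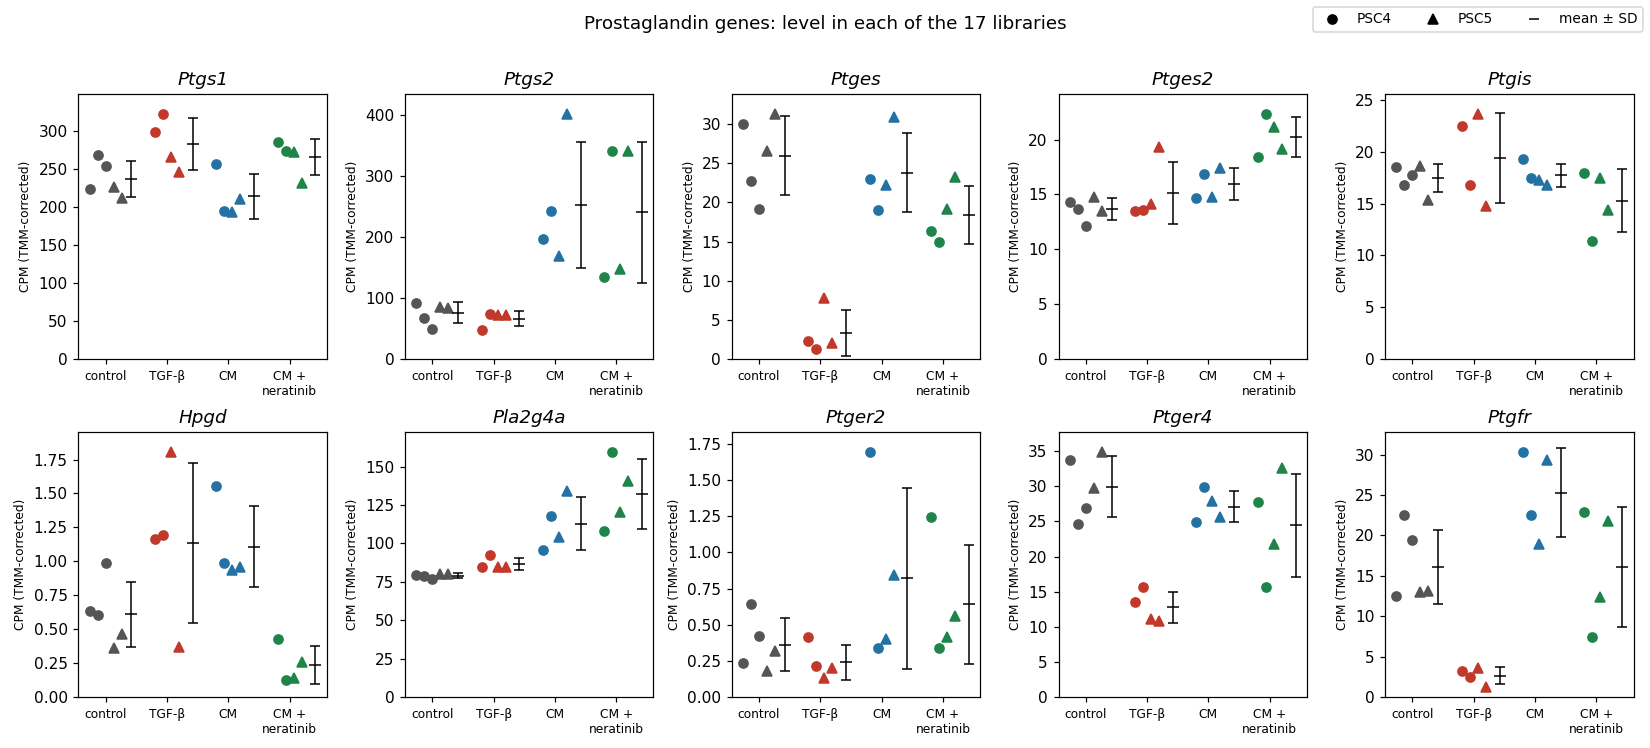
CPM of each of the 10 genes (linear axis from 0) in the 17 libraries, with circles for PSC4, triangles for PSC5 and the group mean ± SD beside the points. Ptges, Ptger4 and Ptgfr are low in all 4 TGF-beta libraries, Ptgs2 and Pla2g4a are above control in all 8 libraries in conditioned medium, and Hpgd is lowest with neratinib.

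Ptges (ENSMUSG00000050737, chromosome 2, 30889471 to 30929863, minus strand), the inducible synthase of prostaglandin E2 that works with Ptgs2, had the largest change of the 10 genes against control. Its control libraries read 30.0, 22.8 and 19.2 CPM in PSC4 replicates 1 to 3 and 26.5 and 31.3 CPM in PSC5. With TGF-beta they read 2.25 and 1.30 CPM in PSC4 and 7.74 and 2.07 CPM in PSC5 replicates 1 and 2. All 4 were far below every control library, with PSC5 replicate 1 well above the other three. In log2 units Ptges fell by 3.11 (8.62-fold lower, SE 0.34, adjusted p 7.12e-06, edgeR), in 17 of 17 alternatives, with -3.76 when TGF-beta PSC5 replicate 1 was left out. The CM libraries read 19.0 and 23.04 CPM in PSC4 and 30.9 and 22.3 CPM in PSC5, which overlapped control (difference -0.19, 95% interval -0.82 to 0.44, adjusted p 0.720, edgeR). Of Ptgs2 and Ptges, which act in sequence, the first alone was called in CM against control and the second alone with TGF-beta. The neratinib libraries read 14.9 and 16.4 CPM in PSC4 and 23.3 and 19.1 CPM in PSC5, all below the control mean (difference -0.57, adjusted p 0.139, edgeR). With the block of line and number in place of the line, this fall was called (-0.68, adjusted p 0.0383). It was also called with only the 2 groups in the model (-0.539, adjusted p 0.0198, edgeR).

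Ptges2 (ENSMUSG00000026820, chromosome 2, 32395896 to 32405772, plus strand), a membrane-bound synthase that is constitutively expressed, read 14.3, 13.7 and 12.1 CPM in the PSC4 control libraries and 14.7 and 13.5 CPM in those of PSC5. The neratinib libraries read 22.3 and 18.4 CPM in PSC4 and 19.2 and 21.1 CPM in PSC5, above every control and every CM library. Ptges2 rose by 0.56 with neratinib against control (1.47-fold, SE 0.11, adjusted p 0.000933, edgeR), in 19 of 19 alternatives. The CM libraries read 16.9 and 14.7 CPM in PSC4 and 17.4 and 14.8 CPM in PSC5, and neratinib was 0.35 above CM (SE 0.11, adjusted p 0.0429, edgeR). This second call held in only 6 of 18 alternatives and was lost in 6 of 8 fits that left out a library, such as the one without neratinib PSC4 replicate 1 (0.27, adjusted p 0.131), and without the 3 libraries that stood apart (0.32, adjusted p 0.0792). With TGF-beta the values were 13.5 and 13.6 CPM in PSC4 and 14.1 and 19.3 CPM in PSC5 (difference 0.13, adjusted p 0.353, edgeR).

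Ptgis (ENSMUSG00000017969, chromosome 2, 167191805 to 167240604, minus strand), prostacyclin synthase, was not called in any of the 5 comparisons. Its means were 17.4 ± 1.35 CPM in control (SD, n = 5), 19.4 ± 4.32 with TGF-beta, 17.7 ± 1.07 in CM and 15.3 ± 3.05 with neratinib (SD, n = 4 each). The range over all 17 libraries ran from 11.4 CPM in neratinib PSC4 replicate 1 to 23.6 CPM in TGF-beta PSC5 replicate 1. The 95% interval of the difference from control was -0.29 to 0.34 in CM and -0.16 to 0.48 with TGF-beta.

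Hpgd (ENSMUSG00000031613, chromosome 8, 56294585 to 56321043, plus strand), which inactivates prostaglandins, was sparse, so its values rest on few reads. In CM the libraries held 29 and 44 counts in PSC4 replicates 1 and 2 and 25 and 28 counts in PSC5, or 0.985, 1.55, 0.956 and 0.939 CPM. With neratinib they held 3 and 11 counts in PSC4 and 6 and 3 counts in PSC5, or 0.128, 0.428, 0.259 and 0.137 CPM. These groups did not overlap, and each neratinib library was far below the CM library of the same line and number. Hpgd fell by 2.19 (4.56-fold lower, SE 0.47, adjusted p 0.00538, edgeR), in 16 of 18 alternatives. With the T6 or the T8 libraries removed the fall was as large (-2.28 and -2.14) and not called (adjusted p 0.126 and 0.0722). A level of 3 counts equals 0.101 to 0.137 CPM, so 2 of the 4 neratinib libraries lie at the limit of what this depth can show.

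The control libraries of Hpgd read 0.636, 0.608 and 0.987 CPM in PSC4 and 0.359 and 0.461 CPM in PSC5. Against them neratinib stood at -1.26 in log2 units (SE 0.46, adjusted p 0.0376, edgeR), but the groups overlapped and the call held in only 10 of 19 alternatives. It was lost without neratinib PSC4 replicate 1 (-0.99, adjusted p 0.125), neratinib PSC5 replicate 2 (-1.14, 0.0913) or control PSC4 replicate 3 (-1.08, 0.0856), and without control PSC4 replicate 2 (-1.30, 0.0511) or control PSC5 replicate 2 (-1.29, 0.0561). It was also lost without the 3 libraries that stood apart (-1.003, adjusted p 0.142). CM lay 0.93 above control without passing the test (adjusted p 0.142, edgeR). With only the 2 groups in the model this rise was called (0.946, adjusted p 0.0356, edgeR). The TGF-beta libraries read 1.16 and 1.19 CPM in PSC4 and 1.81 and 0.366 CPM in PSC5, 3 of 4 above the control mean (difference 0.97, adjusted p 0.0693, edgeR). That difference was called without control PSC4 replicate 3 (1.15, adjusted p 0.0489) or TGF-beta PSC5 replicate 2 (1.22, 0.0203), and it was 0.47 (adjusted p 0.344) without TGF-beta PSC5 replicate 1.

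Ptger4 (ENSMUSG00000039942, chromosome 15, 5206661 to 5244187, minus strand), a prostaglandin E2 receptor gene well above Ptger2 in level per kilobase, read 33.7, 24.6 and 26.9 CPM in the PSC4 control libraries and 29.8 and 34.9 CPM in those of PSC5. With TGF-beta it read 13.5 and 15.6 CPM in PSC4 and 11.0 and 10.9 CPM in PSC5, all below every control library. Ptger4 fell by 1.23 (2.35-fold lower, SE 0.19, adjusted p 0.000112, edgeR), in 17 of 17 alternatives. The CM libraries read 29.8 and 24.9 CPM in PSC4 and 25.7 and 27.97 CPM in PSC5 and lay within the control range (difference -0.15, adjusted p 0.633, edgeR). With neratinib the values spread from 15.7 CPM in PSC4 replicate 1 over 21.8 and 27.8 to 32.6 CPM in PSC5 replicate 1, with a difference from control of -0.30 (adjusted p 0.201, edgeR). Without that highest library the fall was called (-0.46, adjusted p 0.0463). Ptger4 shares 82 exon bases with Ttc33 on the opposite strand and 1015 with the pseudogene Gm15937, which held 24 counts over all libraries against 10829 for Ptger4. Whether the counting used strand is not given in the sources used here, so part of its reads may be uncertain. The same holds for Ptger2 (144 and 246 shared exon bases), Ptgfr (329), Ptgis (156) and Ptgs1 (148). Their partner genes on the opposite strand are absent from the deposited tables.

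Ptgfr (ENSMUSG00000028036, chromosome 3, 151796502 to 151837630, minus strand), the prostaglandin F receptor, had the second largest fall with TGF-beta. The control libraries read 12.5, 22.5 and 19.5 CPM in PSC4 replicates 1 to 3 and 13.0 and 13.2 CPM in PSC5, and the TGF-beta libraries 3.23 and 2.53 CPM in PSC4 and 3.61 and 1.26 CPM in PSC5. The groups were far apart, and Ptgfr fell by 2.58 (5.97-fold lower, SE 0.36, adjusted p 6.1e-05, edgeR), in 17 of 17 alternatives. In CM it read 22.6 and 30.3 CPM in PSC4 and 29.4 and 18.9 CPM in PSC5, all above the control mean. The difference was 0.68 (adjusted p 0.175, edgeR). The block of line and number called this rise (0.71, adjusted p 0.0269), as did the model with only the 2 groups (0.695, adjusted p 0.0401). With neratinib it read 7.49 and 22.9 CPM in PSC4 and 21.7 and 12.4 CPM in PSC5. Each was below the CM library of the same line and number (difference -0.64, adjusted p 0.194, edgeR), and here too the block called the fall (-0.73, adjusted p 0.0206). Between CM and TGF-beta Ptgfr had the largest difference of the 10 genes, 3.25 (9.54-fold, SE 0.38, adjusted p 1.22e-05, edgeR).

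Ptger2 (ENSMUSG00000037759, chromosome 14, 44988195 to 45003820, plus strand), the other receptor for prostaglandin E2 that raises cyclic AMP, was close to the limit of detection. The control libraries held 5 to 18 counts, the TGF-beta libraries 3 to 11, the CM libraries 10 to 48 and the neratinib libraries 8 to 32. In conditioned medium PSC4 replicate 2 was the highest library both with the inhibitor (1.25 CPM) and without it (1.69 CPM). The difference between CM and control was 1.25 (adjusted p 0.102, edgeR). It was called with the block of line and number (1.12, adjusted p 0.0205), without CM PSC4 replicate 1 (1.59, adjusted p 0.0401) and without the 3 libraries that stood apart (1.46, adjusted p 0.0162). Against control the neratinib difference was 0.90 (adjusted p 0.156, edgeR), and it was called without those 3 libraries (1.081, adjusted p 0.0342) and with the block (0.82, adjusted p 0.0428). Ptger2 was higher in CM than with TGF-beta (1.76, SE 0.54, adjusted p 0.0202, edgeR), in 13 of 18 alternatives. That call was lost without CM PSC4 replicate 2 (1.29, adjusted p 0.105), CM PSC5 replicate 1 (1.55, 0.0595), TGF-beta PSC4 replicate 3 (1.60, 0.0645) or TGF-beta PSC5 replicate 1 (1.65, 0.0511).

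**Figure D2:**
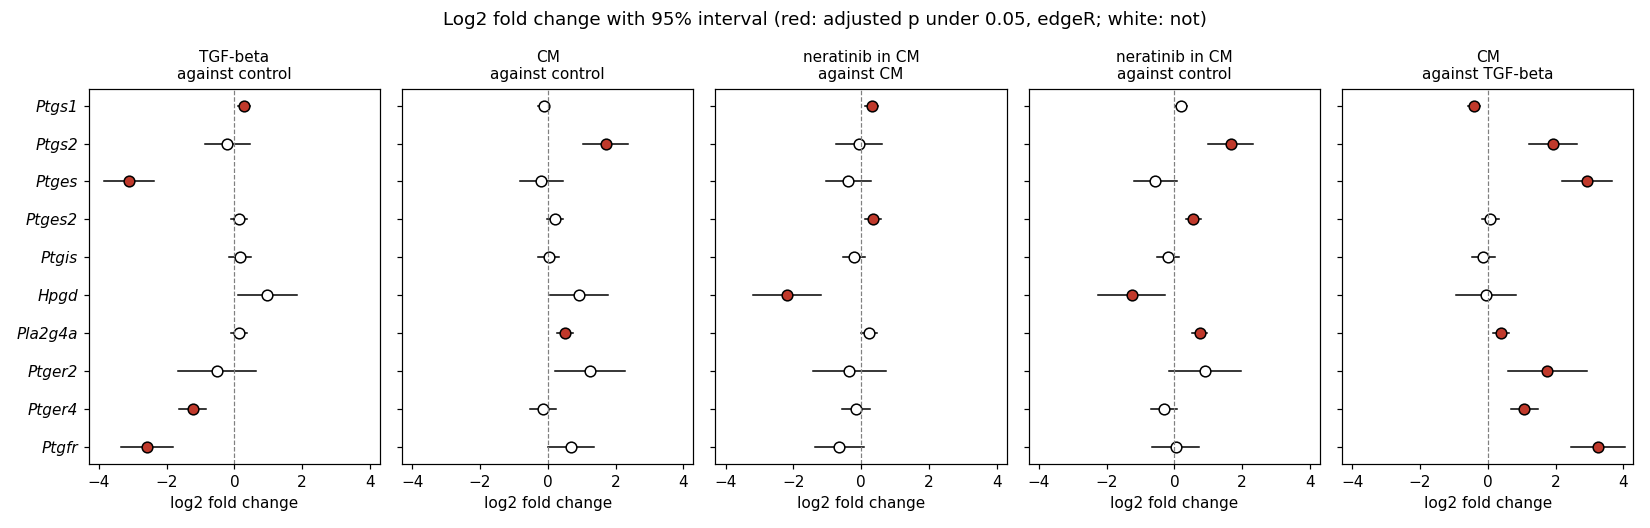
Fitted log2 fold change of the 10 genes with its 95% interval in the 5 comparisons, red where the adjusted p was under 0.05 in edgeR. The widest red shifts are Ptges and Ptgfr, lower with TGF-beta (-3.11 and -2.58) and higher in CM than with TGF-beta (2.92 and 3.25), and the white Ptgs2 point of neratinib against CM sits at -0.06.

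Set directly against each other, CM and TGF-beta differed in synthesis and reception. In CM Ptges was higher than with TGF-beta by 2.92 (SE 0.35, adjusted p 1.53e-05, edgeR), Ptgs2 by 1.92 (SE 0.33, adjusted p 0.000421) and Ptger4 by 1.083 (SE 0.19, adjusted p 0.000511). For Ptges and Ptger4 this came with CM libraries that overlapped control, and for Ptgs2 with TGF-beta libraries that overlapped control. Pla2g4a was higher by 0.38 (SE 0.11, adjusted p 0.0157), though not without CM PSC5 replicate 1 (0.28, adjusted p 0.0635). The groups did not overlap for 5 of the 10 genes in this comparison (31.5% of all genes) and for 4 with TGF-beta against control (32.7%). In CM against control they did not overlap for 2 (19.8%), with neratinib against CM for 2 (18.7%) and with neratinib against control for 3 (29.4%).

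Levels of different genes were compared per kilobase of exon. In control the order was Ptgs1 (61.1 ± 6.00 CPM per kilobase), Ptgs2 (16.5 ± 3.77), Pla2g4a (12.4 ± 0.239), Ptgis (6.79 ± 0.527), Ptges (6.60 ± 1.28), Ptger4 (4.51 ± 0.661), Ptges2 (2.70 ± 0.200), Ptgfr (2.38 ± 0.678), Hpgd (0.363 ± 0.142) and Ptger2 (0.0695 ± 0.0352; SD, n = 5 each). Neighbours whose ranges overlapped were Ptgs2 and Pla2g4a, Ptgis, Ptges and Ptger4, and Ptges2 and Ptgfr. With TGF-beta Ptges dropped from the fifth to the seventh place (0.850 ± 0.753, SD, n = 4) and Ptgfr to the ninth (0.392 ± 0.153), below Hpgd in mean with a range that overlapped that of Hpgd. In CM Ptgs2 (55.2 ± 22.7) drew level with Ptgs1 (55.2 ± 7.65), and their ranges overlapped there and with neratinib only. Of the 3 terminal synthases among the 10 genes, Ptgis was the highest with TGF-beta, at 7.57 ± 1.68 CPM per kilobase. Its range overlapped that of Ptges in control, in CM and with neratinib. RNA levels of different enzymes say nothing of their activities.

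**Figure D3:**
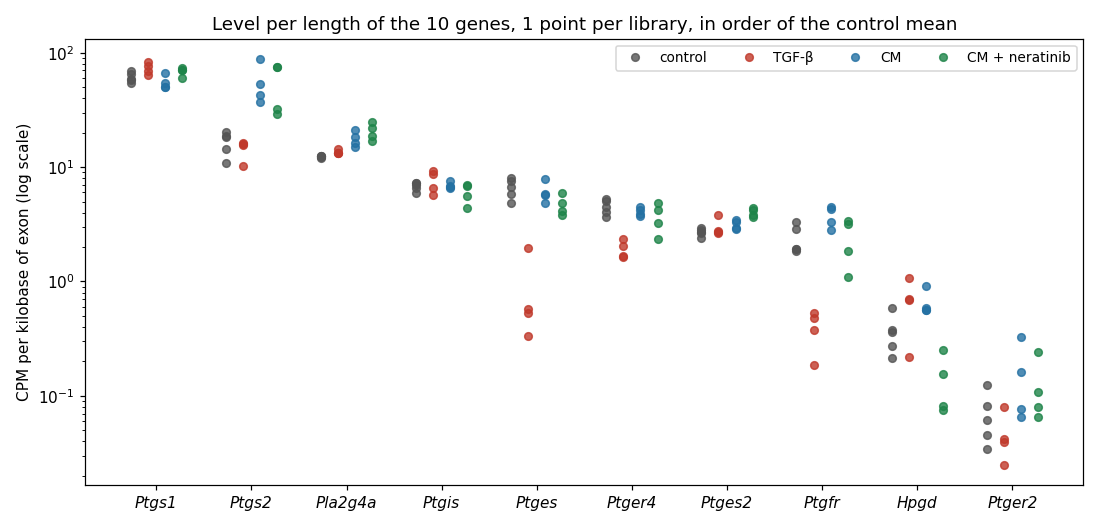
Level per kilobase of exon (log axis) of the 10 genes, ordered by their control mean, with 1 point per library coloured by medium. Ptgs1 is highest in control and TGF-beta, Ptgs2 reaches its range in conditioned medium, and outside TGF-beta Hpgd and Ptger2 lie below the rest.

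Within the conditioned media, Ptgs2 and Pla2g4a were lower with T6 than with T8 in the fit, though edgeR called neither with all 8 libraries. Ptgs2 read 242, 402, 341 and 340.4 CPM in the 4 T8 libraries and 197, 169, 134 and 148 CPM in the 4 T6 libraries, which did not overlap. Over these 8 libraries Ptgs2 was lower in T6, with a log2 difference of -1.03 (SE 0.18, p 0.000875, edgeR's quasi-likelihood test), but the adjusted p over 13254 genes was 0.154. Pla2g4a read 118 to 159.6 CPM in T8 and 95.5 to 121 CPM in T6, which overlapped. Its difference was -0.36 (SE 0.08, adjusted p 0.241, edgeR). None of the 10 genes was called in that test, and 0.0226% of all genes were. An unadjusted p under 0.05 was found for 2 of the 10 and for 1278 of the 13254 genes. DESeq2 called both Ptgs2 (-1.03, adjusted p 1.02e-05) and Pla2g4a (-0.36, adjusted p 0.014), where it called 2.25% of all genes. In 6 libraries, without PSC4 replicate 1, Ptgs2 (-1.22, adjusted p 0.0104) and Ptgfr (-0.71, adjusted p 0.0209) were called with edgeR, where 3.57% of all genes were. The code, the replicate number and the passage went together in every library with conditioned medium and cannot be told apart.

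**Figure D4:**
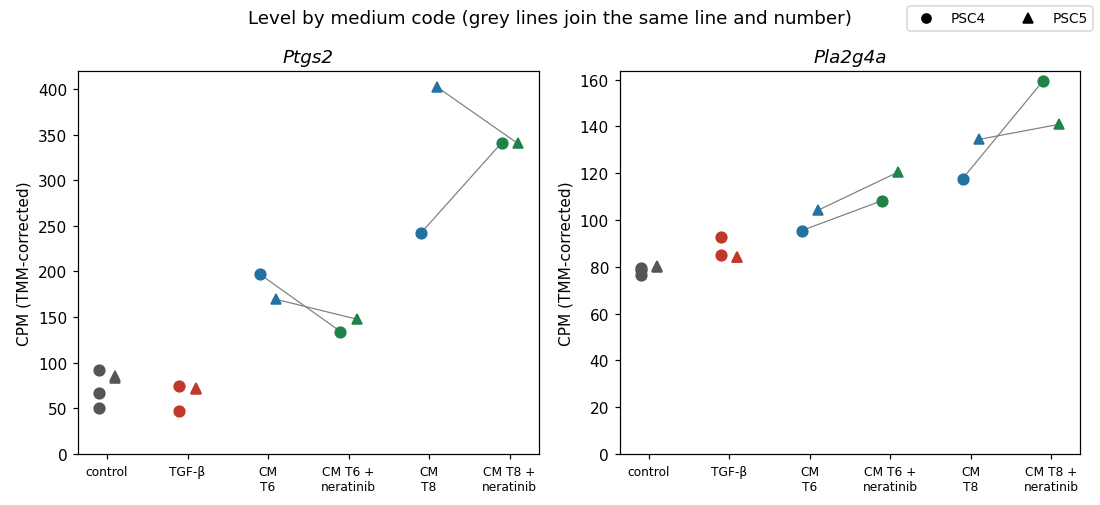
CPM of Ptgs2 and Pla2g4a (linear axes from 0) in control, TGF-beta and the conditioned media split by code, with grey lines joining CM and neratinib libraries of the same line and number. All T8 values of Ptgs2 lie above all T6 values, and neratinib is above its CM partner in 1 of 4 pairs for Ptgs2 and in 4 of 4 for Pla2g4a.

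Markers of other cells also went with the medium. The summed level of 12 epithelial markers was 16.95 to 27.88 CPM in control and 15.89 to 21.76 CPM with TGF-beta. It was 152 to 186 CPM in the CM libraries with T6 and 22.93 to 46.32 CPM in those with T8, and with neratinib 146.3 to 324.6 CPM in T6 and 10 to 52.87 CPM in T8. Ptgs2 was thus higher in the T8 libraries, where the epithelial sum was lower. The sum of 10 macrophage and leukocyte markers was 14.4 to 17.94 CPM in control, 27.13 to 53.28 CPM in CM and 35.92 to 68.22 CPM with neratinib, with only Cd14 at 10 CPM or more throughout these 3 groups and Adgre1 and Tyrobp at 0. The fibroblast and stellate sum was 12560 to 24560 CPM with TGF-beta against 6651 to 8758 CPM in control. The part of these markers in the results was not tested.

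With all libraries none of the 10 was called between PSC5 and PSC4 in edgeR (6.97% of all genes), and 2 had an unadjusted p under 0.05, as had 4079 of all 13923 genes: Ptgs1 was 0.19 lower in PSC5 (adjusted p 0.0601) and Ptges 0.55 higher (adjusted p 0.117). DESeq2 called Ptgs1 (-0.19, adjusted p 0.0213), where it called 15.9% of all genes. Without the 3 libraries that stood apart, Ptgs1 (-0.26, adjusted p 0.000948) and Ptger2 (-1.20, adjusted p 0.00319) were lower in PSC5, where 42.6% of all genes were called. In that fit 6 of the 10 had an unadjusted p under 0.05, as had 7063 of 14049 genes, with Ptges 0.59 and Ptgs2 0.52 higher in PSC5 (adjusted p 0.0728 and 0.082). Whether the response to a medium differed between the lines was tested by an interaction term. None of the 10 genes was called for TGF-beta, CM or neratinib, by edgeR or DESeq2, and none had an unadjusted p under 0.05 in either (0.0% of all genes called in edgeR for each of the 3 terms). For Ptges the fall with TGF-beta was 1.19 smaller in PSC5 (SE 0.62, unadjusted p 0.0805), which does not pass. Without the 3 libraries that stood apart, Ptger4 had an unadjusted p of 0.0149 for a fall with TGF-beta 0.74 deeper in PSC5 (adjusted p 0.492).

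The rest of the pathway was followed with 65 further genes in 6 lists, of which 48 passed the filter. The lists were drawn up from general knowledge, with earlier results of these data known. Among genes that release arachidonic acid, store it or restrain its release, 12 of 16 were tested. The list pools these roles, so its counts and median give no direction of supply. Acsl4, the ligase that joins arachidonic acid to coenzyme A before its storage in phospholipids, rose in CM with Pla2g4a. The rise was 0.66 (SE 0.07, adjusted p 7.38e-05, edgeR), from 108 ± 4.298 CPM (SD, n = 5) to 168 ± 8.70 (SD, n = 4). With neratinib against control Acsl4 rose by 1.05. Lpcat3, which transfers arachidonic acid into phospholipids, rose in CM by 0.48 (SE 0.08, adjusted p 0.00115) and with TGF-beta by 0.38 (adjusted p 0.00118, edgeR). Anxa1, known to restrain phospholipase A2, fell in CM by 0.66 (SE 0.16, adjusted p 0.0165). With TGF-beta 7 of the 12 rose and 1 fell, where 19.7% of all genes rose and 20.5% fell. The largest rises were in Mgll (1.82, SE 0.63), Faah (1.79, SE 0.28) and Pla2g2e (1.49, SE 0.30), with adjusted p of 0.0322, 0.000138 and 0.00118. The first 2 encode hydrolases of endocannabinoids and the third a secreted phospholipase A2, and all 3 had means under 5 CPM in both groups. Mgll was above the control mean in 3 of 4 TGF-beta libraries, the others in 4 of 4. Neratinib against CM raised Acsl4 (0.39, SE 0.08, adjusted p 0.00371), Pla2g12a (0.48, SE 0.13, adjusted p 0.0206) and, in 3 of 4 libraries, Pla2g2e (1.15, SE 0.32, adjusted p 0.020). Pla2g16, a phospholipase A of adipose tissue, was lower in CM than with TGF-beta (-1.14, SE 0.32, adjusted p 0.012) and fell with neratinib against control (-0.82, SE 0.31, adjusted p 0.0446). The median of the tested genes of this list was 0.53 with TGF-beta (-0.02 over all genes) and 0.12 in CM.

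Of the other prostanoid synthases, 6 of 9 passed the filter; Ptgds and Hpgds, the prostaglandin D synthases, did not. Ptges3, a co-chaperone also known as cytosolic prostaglandin E synthase, rose with TGF-beta by 0.37 (SE 0.09, adjusted p 0.00548) and with neratinib against control by 0.42 (SE 0.09, adjusted p 0.00229), and stood at 209 ± 14.2 CPM in control (SD, n = 5). The carbonyl reductases Cbr3 (-0.89, SE 0.30, adjusted p 0.0275) and Cbr1 (-0.48, SE 0.14, adjusted p 0.0161) fell with TGF-beta. Akr1b3, an aldose reductase that can make prostaglandin F2 alpha, rose in CM by 0.30 (SE 0.09, adjusted p 0.0435) and fell with neratinib against CM by 0.48 (SE 0.10, adjusted p 0.00416). Akr1c18, an aldo-keto reductase, rose with neratinib over CM by 1.89 (SE 0.64, adjusted p 0.0494), in 3 of 4 libraries and from a mean of 0.496 CPM.

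Among the other receptors, 6 of 8 were tested, and Ptgir, the prostacyclin receptor, had the largest differences. It read 13.3 ± 1.78 CPM in control (SD, n = 5), 2.05 ± 0.736 with TGF-beta and 25.1 ± 5.42 in CM (SD, n = 4 each). It fell by 2.70 with TGF-beta (SE 0.26, adjusted p 1.89e-06, edgeR) and rose by 0.90 in CM (SE 0.22, adjusted p 0.0166), each in 4 of 4 libraries. The thromboxane receptor gene Tbxa2r fell in all 3 stimulated groups against control, by 0.93 with TGF-beta (adjusted p 0.0369), 1.14 in CM (adjusted p 0.0364) and 1.42 with neratinib (adjusted p 0.00427), from a control mean of 3.19 ± 1.16 CPM (SD, n = 5). Ptger1, a prostaglandin E2 receptor that raises calcium, was lower with neratinib than in CM by 0.94 (SE 0.29, adjusted p 0.0322), in 4 of 4 libraries. Ppard, a nuclear receptor for fatty acids, rose with neratinib against control by 0.32 (SE 0.09, adjusted p 0.00884). With TGF-beta 2 of these 6 receptors fell and none rose, where 20.5% of all genes fell.

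Of the 5 transport and breakdown genes, Abcc4, an exporter of prostaglandin E2, rose with neratinib over CM by 0.94 (SE 0.21, adjusted p 0.00682), from 22.02 ± 2.36 to 42.0 ± 15.4 CPM (SD, n = 4 each). Zadh2, which reduces 15-keto prostaglandins, fell with TGF-beta by 0.42 (SE 0.09, adjusted p 0.00235) and rose with neratinib over CM by 0.37 (SE 0.10, adjusted p 0.0156). Slco2a1, the uptake carrier, was higher in CM than with TGF-beta by 1.01 (SE 0.35, adjusted p 0.0353). Of the 11 genes of the leukotriene and lipoxygenase branch only 3 passed the filter, and Alox5 did not. Of these Alox5ap fell with neratinib over CM by 1.39 (SE 0.33, adjusted p 0.00998), at 12 counts or fewer per neratinib library. Lta4h, leukotriene A4 hydrolase, rose with TGF-beta by 0.21 (SE 0.06, adjusted p 0.0175) and fell with neratinib against control by 0.17 (SE 0.06, adjusted p 0.0421).

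The last list held 16 genes known to respond to cyclic AMP, the messenger of Ptger2, Ptger4 and Ptgir; many of them also respond to other signals. With TGF-beta 3 rose and 11 fell, where 19.7% of all genes rose and 20.5% fell. The median of the list was -0.85 where all tested genes had -0.02. Rgs2, a brake on G protein signalling, fell by 2.20 (SE 0.37, adjusted p 0.000284), and Pde4b, a phosphodiesterase, by 1.78 (SE 0.20, adjusted p 8.29e-06), while Areg, a ligand of the EGF receptor, rose by 2.00 (SE 0.33, adjusted p 0.000226). In CM 3 rose and 1 fell (7.05% and 7.14% of all genes), with a median of 0.04. Rgs2 rose by 2.11 (SE 0.32, adjusted p 0.000899), Areg by 1.68 (SE 0.32, adjusted p 0.00417) and Pde4b by 0.62 (SE 0.19, adjusted p 0.039). With neratinib against CM Areg fell by 1.02 (SE 0.34, adjusted p 0.0453) and Gem, a small GTPase of the Ras family, by 0.64 (SE 0.20, adjusted p 0.0349). With neratinib against control 3 rose and 5 fell (22.2% and 20.9% of all genes), among the latter the immediate early gene Fos (-0.76, SE 0.26, adjusted p 0.0258). In CM against TGF-beta 10 were higher and 2 lower (17.8% and 17.5% of all genes), with Nr4a1, an orphan nuclear receptor, higher by 1.53 (SE 0.31, adjusted p 0.00139).

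**Figure D5:**
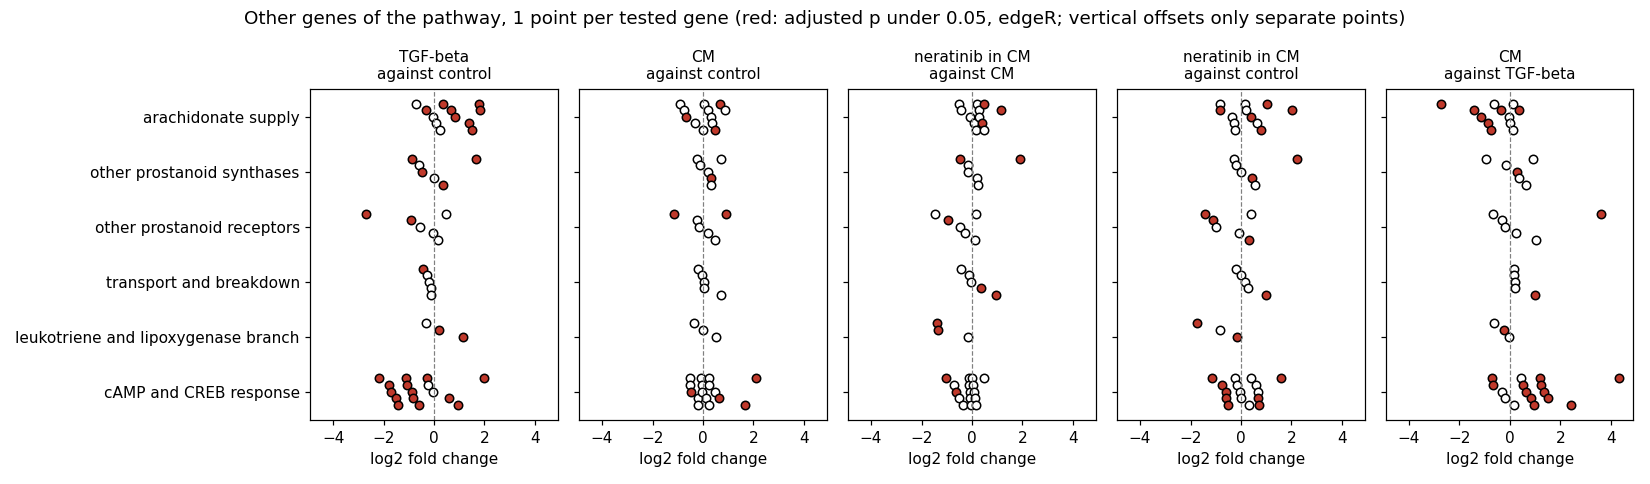
Fitted log2 fold change of each of the 48 tested genes of the 6 further lists in the 5 comparisons, with 1 point per gene, red where the adjusted p was under 0.05 in edgeR. With TGF-beta 11 of the 16 cyclic AMP response genes are red to the left of 0 and 3 to the right, and the leftmost receptor point is Ptgir (-2.70).

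Across the 17 libraries the genes whose log2 CPM followed Ptgs2 most closely were Nfkb1 (r 0.968), Sh3pxd2b (0.967), Il10rb (0.955), Ereg (0.951) and Slc11a2 (0.940), of all tested genes with a symbol. Nfkb1, a subunit of NF-kappaB, had means of 151 CPM in control, 132 with TGF-beta, 226 in CM and 219 with neratinib. Ereg, the EGF family ligand epiregulin, had 24.7, 23.5, 78.4 and 75.8 CPM in the same order. Of the other 9 prostaglandin genes Pla2g4a was the closest to Ptgs2 (r 0.904) and Ptgis the least alike (r -0.495). For Ptgs1 the closest were Card19 (0.941), Prdm6 (0.930), Abcd4 (0.922), Klc1 (0.921) and Gsk3b (0.919). These values describe points that share 4 media and 2 lines, and carry no test.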

How the data were processed

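RNA sequencing of 17 libraries was analysed, taking groups from the labels. The authors deposited expected counts per Ensembl gene, made with Salmon 1.4.0 per the submitters' processing notes, which also name GRCm38 (mm10) and DESeq 2; the annotation release and use of strand are not given in the sources used here. Of the values above 0, 74.8% were not whole, and all were rounded, moving a library total by at most 308 counts. Counts were fitted in edgeR 4.0.16 (R 4.3.3) with TMM factors, filterByExpr by group (minimum count 10), terms for medium and line, and the quasi-likelihood test, adjusted over 13923 genes by Benjamini-Hochberg and called under 0.05. CPM uses TMM-corrected totals, and fitted errors are standard errors of log2 fold changes. Alternatives were DESeq2 1.42.0, other factors, filters and terms, and left-out libraries. The test was checked on simulated independent libraries without line effects or pairing, with changes only in the TGF-beta group and in well-counted genes. That check does not cover sparse genes such as Hpgd and Ptger2.

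The 10 genes, the lists and the tests were chosen with earlier results of these data known. The 10 genes are named whatever their values; of each list, up to 3 called genes per comparison with the largest change and a mean of at least 1 CPM are named, Ptgds, Hpgds and Alox5 as not tested. Deviations from group means of same-numbered libraries of a line, which the labels mark as 1 passage, correlated above 0.1 across genes in 22 of 22 pairs (median 0.299), so number and line pair the libraries; blocked values stand beside results they change. Floors and counts cover counting error only.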

Additional observations from a re-analysis of the deposited data

Results flagged for a closer look

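Of 40 sets of values (10 genes in 4 groups), 5 held a library far from the others of its group by Dixon's criterion, which chance alone meets in about 1 in 20 sets. With TGF-beta, Ptgs2 was lowest in PSC4 replicate 2 (46.92 CPM), Ptges highest in PSC5 replicate 1 (7.739 CPM), Ptges2 highest in PSC5 replicate 2 (19.32 CPM) and Pla2g4a highest in PSC4 replicate 3 (92.75 CPM). In CM, Hpgd was highest in PSC4 replicate 2 (1.552 CPM). The 4 TGF-beta values came from 4 different libraries, so no library of that group stood apart for more than 1 of these genes.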

How the results depend on the processing

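Of 909 values of single genes under an alternative, 827 kept their direction and call, 38 lost the call, 18 gained it and 26 turned sign, none of the last a called value. Ptges, Ptger4 and Ptgfr (TGF-beta against control), Ptgs2 and Pla2g4a (CM or neratinib against control) and Ptgs1, Ptgs2, Ptges, Ptger4 and Ptgfr (CM against TGF-beta) kept their calls throughout, as did Ptges2 (neratinib against control). Hpgd and Ptger2 rest on 3 to 48 counts per library, which limits their precision. The cause of each shift was not tested.

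The number of the 10 genes called was 4 in CM against control with only these groups in the model or with the replicate block in place of the line, against 2. In neratinib against CM it was 1 with only these groups or without the line term and 0 with T6 or T8 removed (fewer libraries), against 3. In neratinib against control it was 7 with the replicate block, against 4. It was 2 between T6 and T8 by DESeq2 or without the libraries labelled PSC4 replicate 1, and between the lines 1 and 2, against 0. Leaving out 1 library gave 3 to 5 (TGF-beta against control), 2 to 3 (CM against control), 1 to 3 (neratinib against CM), 3 to 5 (neratinib against control) and 5 to 7 (CM against TGF-beta). The block changed no other call than those named beside their results.

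Over all genes, CM against control called 1976, but 1079 with T6 removed, 1035 with T8 removed, 3240 with the block and 801 to 1793 without 1 library (801 and 1269 when CM PSC5 replicate 1 or PSC4 replicate 2 was left out, 1204 and 1219 when control PSC5 replicate 1 or replicate 2 was). Neratinib against CM called 2850, but 187 with T6 removed, 1265 with T8 removed, 602 with only these groups, 4563 with the block and 1748 to 3685 without 1 library (1782 without CM PSC4 replicate 1, 1748 without neratinib PSC5 replicate 2). Leaving out 1 library gave 4750 to 5516 in TGF-beta against control, 4952 to 6258 in neratinib against control and 4079 to 4619 in CM against TGF-beta. With upper-quartile factors 37.5% of the genes called in CM against control were higher, against 49.7%, and 41.1% in neratinib against control, against 51.4%.

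Signs turned for small differences. Ptgis in CM against control was -0.02 with upper-quartile factors, -0.02 with T6 removed, and from -0.017 to 0.06 when a library was left out (-0.012 for CM PSC4 replicate 2 and -0.017 for control PSC5 replicate 2), and in neratinib against control 0.032 with T8 removed. Ptgs2 in neratinib against CM was 0.118 with T6 removed and between -0.374 and 0.221 when a library was left out, positive at 0.221 without CM PSC5 replicate 1, 0.126 without neratinib PSC4 replicate 2 and 0.156 without neratinib PSC5 replicate 2. In the same comparison Ptger2 ranged from -0.716 to 0.111 (the latter for CM PSC4 replicate 2) and Ptger4 from -0.323 to 0.025 (the latter for neratinib PSC4 replicate 1), and Ptger4 was 0.066 without the 3 libraries that stood apart. Ptgfr in neratinib against control was -0.019 with upper-quartile factors, -0.016 with the block, -0.159 with T6 removed and from -0.185 to 0.328 when a library was left out, with -0.183 without neratinib PSC4 replicate 2, -0.185 without neratinib PSC5 replicate 1, and -0.047, -0.02 and -0.013 without control PSC4 replicate 1, PSC5 replicate 1 or PSC5 replicate 2. In CM against TGF-beta Ptges2 was -0.037 with T8 removed, and Hpgd 0.219 with the block, 0.086 without the 3 libraries, 0.087 with T8 removed and from -0.315 to 0.511 when a library was left out (0.072 for CM PSC4 replicate 1 and 0.511 for TGF-beta PSC5 replicate 1).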
